A study of Saccharomyces cerevisiae with 4 samples.

Results

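Septins are GTP-binding proteins that join into rods and filaments beneath the plasma membrane. In budding cells they form a ring at the bud neck that holds the cytokinesis machinery in place. The mitotic rod is built from Cdc3, Cdc10, Cdc12 and an end subunit, Cdc11 or Shs1. In sporulating cells the septins lie instead along the prospore membrane, the new membrane that encloses each haploid nucleus, and the sporulation-specific subunits Spr3 and Spr28 stand in for Cdc12 and Cdc11. The mRNAs of all 7 genes were followed here, CDC3, CDC10, CDC11, CDC12, SHS1, SPR3 and SPR28, which were chosen by name as 2 sporulation-specific and 5 vegetative septins. They make up 7 of the 6218 open reading frames (ORFs) on the arrays, and all 7 had unflagged duplicate spots on all 4 arrays.

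The cells were SK1 diploids of strain GF18, in which the SPS4 promoter, that of a middle sporulation gene, drives NDT80, the activator of the middle genes. RNA was taken at 5.5 h in SPM, an acetate-based sporulation medium, and at 0, 20 and 40 min after part of that culture had been moved to YPD, a rich glucose medium, with 1 array for each of the 4 groups. Every array set a Cy5-labelled sample against 1 common reference labelled with Cy3, RNA of the wild-type SK1 diploid NKY1551 grown in YPA, a rich acetate medium without glucose. Strain, medium and stage therefore differ together between any sample and the reference and cannot be told apart. All samples carry the NDT80 construct, so nothing here compares it with NDT80 under its own promoter. A change in mRNA per cell cannot be told apart from a change in the share of cells that hold it. No group had a second array, so there is no test between groups, and each error below is the SD between the 2 adjacent spots of a gene on 1 array. That SD leaves out the variation between cultures, labellings and slides.

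Across the arrays 51.9% to 55.8% of genes were above background in the sample channel and 69.6% to 75.5% in the reference channel, where a gene counts as above background if either spot exceeds the 95th percentile of 236 buffer spots. On each array the 2 spots of a gene correlated over all genes, with r between 0.975 and 0.982. In the sample labelled 5.5 h in SPM, 10 of 11 sporulation marker genes were at least 2-fold above the YPA reference in both spots. Of all genes, 21.7% passed in that direction. Among the 10 were the early meiotic DMC1 and HOP1. SPS4 was at least 69.8-fold and NDT80, the engineered gene of this strain, at least 50.8-fold above the reference. The exception was IME1, the early regulator of meiotic entry, with a log2 ratio of −0.41.

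The septins fell into 2 sets by their ratio to the reference at 5.5 h in SPM. SPR3, SPR28, CDC3 and CDC10 were at least 2-fold higher in the SPM sample than in the YPA reference in both spots, 4 of 7 septins, where 21.7% of all genes passed in that direction. None of the 7 was at least 2-fold lower, against 18.1% of all genes. CDC11, CDC12 and SHS1 lay within 2-fold of the reference. The median log2 ratio of the 7 was 3.44, and that of all genes was 0.01.

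The sporulation-specific SPR3 was far above the reference on every array. Its measured log2 ratios of sample over reference in the 2 spots were 6.75 and 6.69 at 5.5 h in SPM, 7.01 and 7.22 at 0 min in YPD, 6.77 and 7.02 at 20 min, and 5.86 and 6.27 at 40 min. In the sample channel its background-subtracted intensity was 40698 and 37188 at 5.5 h, whereas the reference gave 630 and 593 on the same spots, which is not above background. The reference channel of SPR3 was not above background on any of the 4 arrays, so only a lower bound can be given, at least 64.9-fold at 5.5 h and at least 27.4-fold at 40 min. Against the 384 Arabidopsis control spots, a threshold chosen once these values were known, the reference of SPR3 was above background at 5.5 h and at 0 min, with a 95th percentile of 559 at 5.5 h, and not above it at 20 and 40 min. The sample channel of SPR3 was above background on all 4 arrays by either threshold.

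SPR28, the second sporulation-specific septin, was also far above the reference on every array, but its 2 spots differed. In spot 1 the log2 ratios were 4.97 at 5.5 h, 5.94 at 0 min, 5.42 at 20 min and 4.63 at 40 min. Spot 2 gave 3.75, 3.96, 8.29 and 4.97 in the same order. The spots disagreed mainly in the reference channel. The local Cy3 background beside spot 2 was 3693, 1293, 1755 and 461, against 230, 138, 156 and 157 beside spot 1, and at 20 min it exceeded the spot itself, which left a reference intensity of −424. The sample intensities of both spots at 20 min were 34614 and 34161. The mean ratio of 6.86 ± 2.03 at 20 min (SD of 2 spots) therefore rests on spot 2, and spot 1 is the steadier reading. The mean of both spots put SPR28 20.5-fold above the reference at 5.5 h and 27.8-fold at 40 min. In spot 1 alone the ratio was lower at 40 min (4.63) than at 5.5 h (4.97), so the means show no firm rise. Its sample spots were also near the upper end of the scanner's range, as set out below. The folds are given as measured means and not as bounds, because the local Cy3 background beside spot 2 was high. Unlike SPR3, SPR28 was above background in the YPA reference on all 4 arrays.

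CDC3 and CDC10, which form the centre of the mitotic rod and are also part of the spore septins, were the vegetative septins with high ratios. CDC3 had log2 ratios of 4.03 and 4.10 at 5.5 h in SPM, 4.41 and 4.52 at 0 min in YPD, 3.64 and 3.41 at 20 min, and 3.18 and 2.75 at 40 min. The values at 20 and 40 min lie below both earlier ones in both spots. CDC10 followed the same order of arrays, with log2 ratios of 3.50 and 3.38 at 5.5 h, 3.68 and 3.73 at 0 min, 2.86 and 2.47 at 20 min, and 2.15 and 2.06 at 40 min. By the mean of its 2 spots CDC3 was 16.7-fold above the YPA reference at 5.5 h and 7.80-fold at 40 min. For CDC10 these means were 10.9-fold at 5.5 h and 4.29-fold at 40 min. They are not bounds, since single spots gave lower values. Both were above background in the reference on all arrays.

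The partners of CDC3 and CDC10 in the mitotic rod had ratios nearer 0. CDC12, whose product is the subunit next to Cdc3 that Spr3 replaces in spores, had log2 ratios of −0.25 ± 0.03 at 5.5 h, −0.65 ± 0.22 at 0 min, −0.26 ± 0.16 at 20 min and 0.01 ± 0.01 at 40 min (SD of 2 spots on 1 array). SHS1, the alternative end subunit, had 0.18 ± 0.06, 0.32 ± 0.17, 0.20 ± 0.10 and −0.13 ± 0.18 in the same order. Neither passed 2-fold in any direction on any array. CDC11, the end subunit whose place Spr28 takes, was the only vegetative septin whose ratio was lower on each successive array, with 0.43 ± 0.14, 0.02 ± 0.14, −0.58 ± 0.02 and −1.28 ± 0.05. Of these 3, CDC11 had the highest ratio at 5.5 h and the lowest at 40 min. At 40 min CDC12 and SHS1 did not differ beyond the spread of their spots, and their order was reversed under 4 alternatives (array median, print-tip loess, the background floor and the deposited table). Ratios are relative to the reference of the same gene and give no ranking of mRNA amounts between genes.

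**Figure D1:**
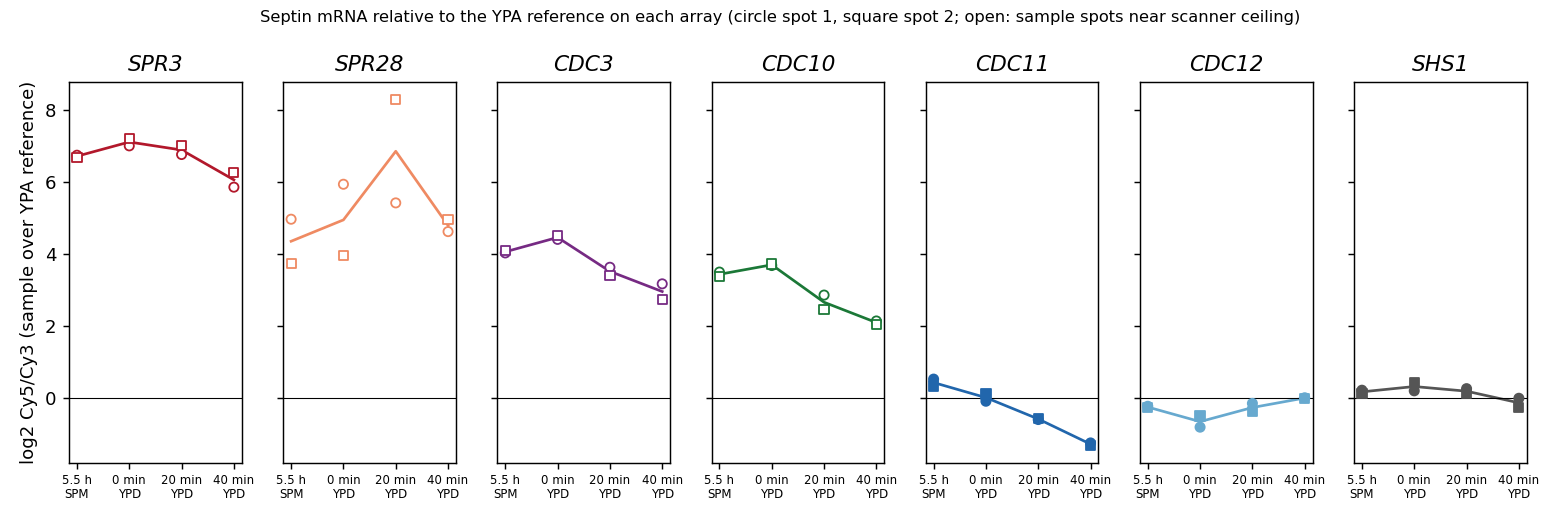
Log2 Cy5/Cy3 ratio (sample over YPA reference) of the 7 septins on the 4 arrays, with circles for spot 1, squares for spot 2 and a line through their mean; open symbols mark sample spots near the scanner ceiling. SPR3, SPR28, CDC3 and CDC10 lie above 2 on all arrays, and CDC11, CDC12 and SHS1 lie near 0, with CDC11 at −1.28 at 40 min.

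The 4 septins with high ratios were bright enough for the scanner's range to matter. The standard deviation of the pixels within a spot, which the scanner files give, cannot pass a limit set by the spot's mean if pixel values end at 65535, the top of a 16-bit scale. That scale is an assumption, since the sources used here do not state it. All 32 sample spots of SPR3, SPR28, CDC3 and CDC10 had 80.8% to 91.3% of the largest possible SD, whereas the 24 sample spots of CDC11, CDC12 and SHS1 had 9.53% to 27.2%. Over all gene spots the median was 10.7% to 15.9% by array. A spread this close to the limit is that of spots in which many pixels sit at the top or the bottom of the scale, so the mean can understate a bright spot. Where the SD keeps pace with the intensity, this share rises with brightness, so the gap between the 2 sets follows brightness as well. At 5.5 h the SD in spot 1 was 1647 at an intensity of 1707 for CDC11, and 28483 at 34151 for CDC3. Genes with both sample spots at 80% or more are called near the ceiling below, and they numbered 170, 92, 152 and 230 on the 4 arrays (2.73%, 1.48%, 2.44% and 3.70% of genes). SPR3, SPR28, CDC3 and CDC10 were among them on all 4 arrays. The folds of CDC3, CDC10 and SPR28 over the reference are measured means, which the ceiling may have made too low. Those of SPR3 are lower bounds, because its reference was not above background, and carry the same limit. For changes of these 4 septins between arrays no fold is given, only the measured log2 value.

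**Figure D2:**
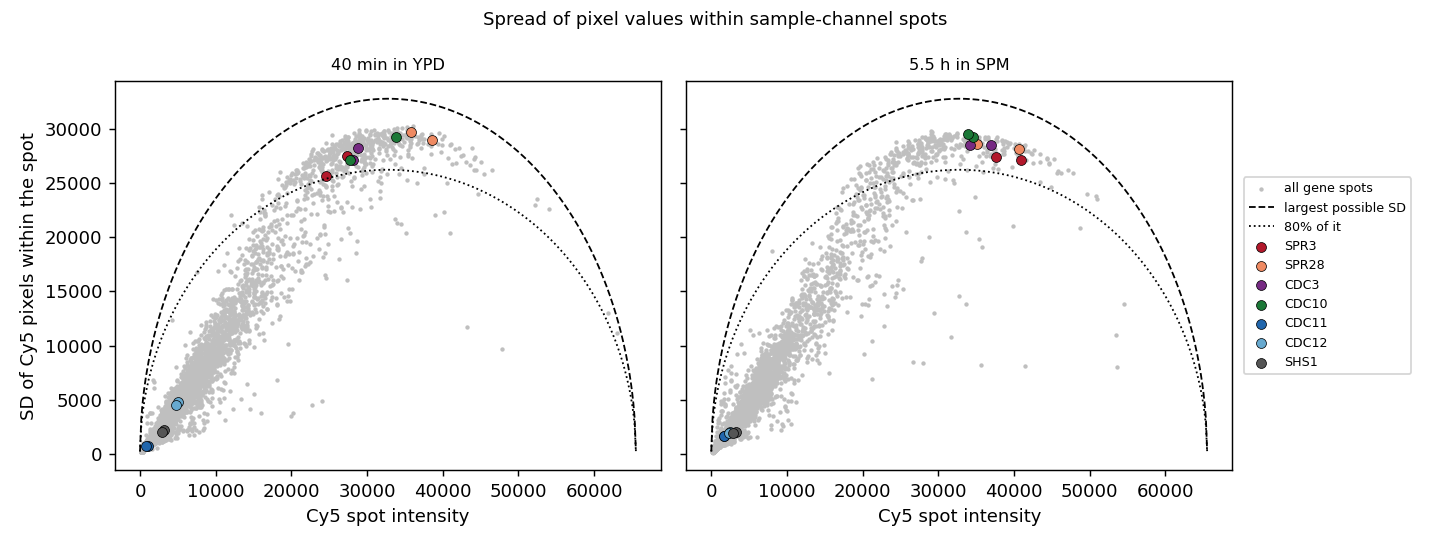
Standard deviation of the Cy5 pixels within a spot (vertical axis, intensity units) against the Cy5 spot intensity (horizontal axis, not background-subtracted) at 40 min in YPD and at 5.5 h in SPM, with gene spots in grey, septin spots in colour, the largest SD possible below 65535 as a dashed line and 80% of it as a dotted line. SPR3, SPR28, CDC3 and CDC10 sit between the dotted and dashed lines, and CDC11, CDC12 and SHS1 lie at the lower left.

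The intensities before any scaling show what this means for the time course. The median sample intensity of all gene spots was 2039 at 40 min in YPD and 1427 at 5.5 h in SPM, a difference of 0.52 on the log2 scale. The unscaled sample intensity of the bright septins differed between the same arrays by −0.02 for SPR28, −0.15 for CDC10, −0.32 for CDC3 and −0.62 for SPR3. Among the septins below the ceiling it differed by 1.03 for CDC12, −0.04 for SHS1 and −0.88 for CDC11. Of the bright septins, SPR28 and CDC10 thus differed little before scaling, and all 4 differences were below 0 while that of the array median was above 0. How much the ceiling contributes to their measured changes was not tested.

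**Figure D3:**
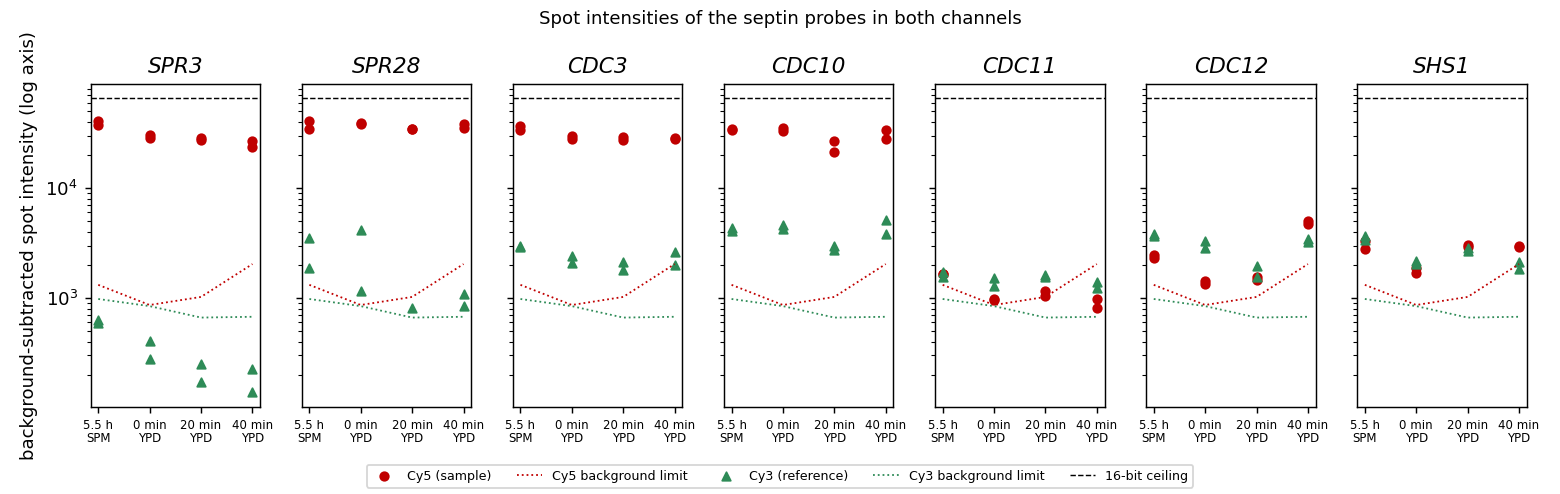
Background-subtracted intensity of both spots of each septin (log axis) on the 4 arrays, in the sample channel (red circles) and the YPA reference channel (green triangles), with dotted lines for the 95th percentile of the buffer spots and a dashed line at 65535; SPR28 spot 2 in Cy3 at 20 min, at −424, cannot be drawn. SPR3 is bright in Cy5 and below the dotted line in Cy3 on all arrays, and CDC11 falls below the Cy5 line at 40 min.

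Transfer to YPD addressed what happens to this set when sporulating cells are returned to rich medium. Right after the transfer, at 0 min, none of the 7 septins was at least 2-fold higher or lower in both spots than at 5.5 h in SPM, where 7.59% of all genes were higher and 4.13% lower. The measured log2 changes of the 7 ran from −0.42 for CDC11 to 0.59 for SPR28, with a median of 0.26, against −0.16 for all genes. The same was found at 20 min, with 0 of 7 septins past 2-fold in either direction, against 11.5% of all genes higher and 15.8% lower. The median at 20 min was −0.01 for the septins and −0.26 for all genes. CDC11 came closest to the limit at 20 min, with a log2 change of −1.01 ± 0.16 and values of −1.12 and −0.90 in its 2 spots. CDC3 and CDC10 had measured changes of −0.54 ± 0.21 and −0.78 ± 0.19 at 20 min. Both signs turned under an alternative, to 0.03 for CDC3 with array median scaling and to 0.74 for CDC10 with print-tip loess. For CDC10 at this time the local Cy5 background was 334 beside spot 1 and 9219 beside spot 2.

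At 40 min in YPD, 2 of 7 septins, CDC10 and CDC11, were at least 2-fold lower than at 5.5 h in SPM in both spots, where 19.8% of all genes were lower, and 0 of 7 were at least 2-fold higher, where 13.9% of all genes were. The median change was −0.66 for the 7 and −0.22 for all genes. CDC11 had a log2 change of −1.71 ± 0.09 with both spots together, −1.77 and −1.65. Its sample intensity was 985 and 815 at 40 min, against 1664 and 1644 at 5.5 h, while the reference gave 1385 and 1228 on the 40 min array and 1562 and 1736 on the 5.5 h array. At 40 min the sample channel of CDC11 was not above background, since the 95th percentile of the buffer spots was 2034 on that array, so the bound is at least 1.13-fold lower. The median of the buffer spots was 246 there. Against the threshold from the Arabidopsis control spots, CDC11 at 40 min was above background, with a 95th percentile of 317. In the sample channel alone, CDC11 changed by −0.13 at 0 min, −0.29 at 20 min and −1.40 at 40 min on the log2 scale. That value is not a ratio to the reference, but its scaling uses both channels.

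CDC10 had measured log2 changes of −1.36 and −1.32 in its 2 spots at 40 min, near the ceiling on both arrays. It did not pass 2-fold in the sample channel alone, at −0.90, or with loess fitted within each printed block, at −0.53. CDC3 reached −0.86 and −1.35 in its spots, with −1.05 in the sample channel alone, and did not pass 2-fold in both spots. SPR3 had −0.89 and −0.43, with −1.14 in the sample channel alone. SPR28 had −0.34 in spot 1 and 1.22 in spot 2, where the local Cy3 background was 461 at 40 min and 3693 at 5.5 h, and −0.67 in the sample channel alone. All 4 of these septins had values below 0 in the sample channel at 40 min and above 0 at 0 min. Before scaling, the changes at 0 min were −0.31 for CDC3, −0.40 for SPR3, 0.004 for CDC10 and 0.04 for SPR28. The array median differed by −0.63, so the sign at 0 min depended on the scaling for CDC3 and SPR3. These values are a description, since the bright spots carry the limit given above.

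CDC12 and SHS1 were measured within range on both arrays. At 40 min CDC12 had a log2 change of 0.25 ± 0.02 and SHS1 of −0.30 ± 0.12, and in the sample channel alone 0.64 and −0.53. Neither passed 2-fold at any time after transfer. CDC12 and CDC11, whose products lie side by side in the mitotic rod, thus had log2 changes of opposite sign in both measures at 40 min. The change of CDC12 did not pass 2-fold, and the sample channel of CDC11 was not above the buffer spots' threshold at 40 min. Both measures share 1 normalization and are not independent.

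**Figure D4:**
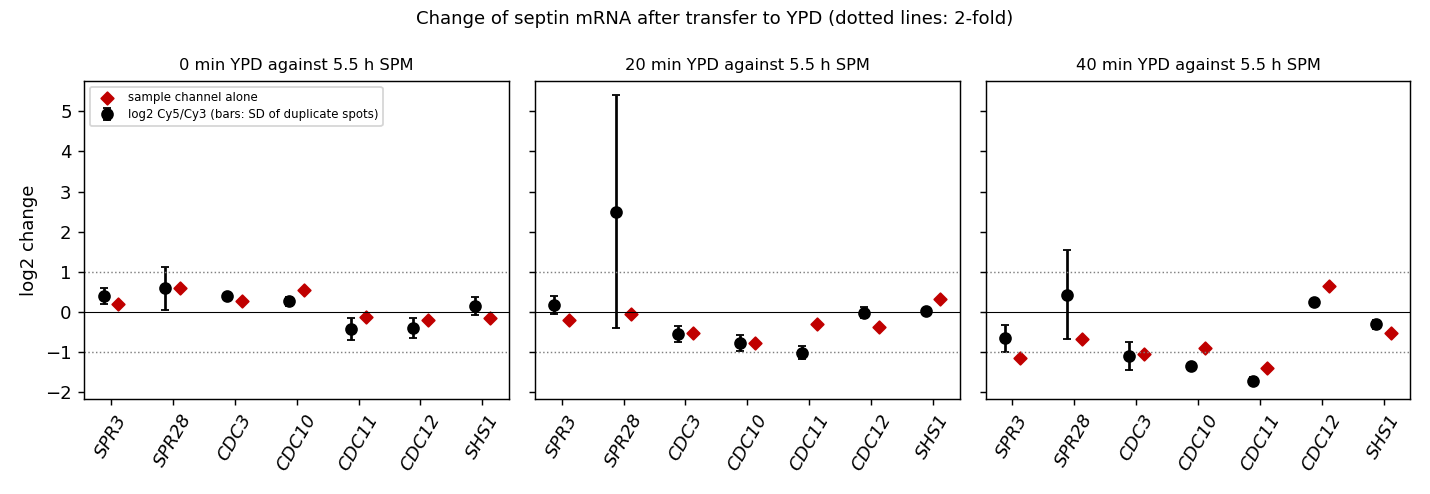
Log2 change of the 7 septins at 0, 20 and 40 min in YPD against 5.5 h in SPM, as the difference of Cy5/Cy3 ratios (black, bars are the SD of the 2 spots) and in the sample channel alone (red), with dotted lines at 2-fold. At 40 min CDC11 and CDC10 lie below the lower dotted line in the ratio, CDC12 is slightly above 0, and the long bar of SPR28 at 20 min reflects its second spot.

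Against the YPA reference the bright septins still stood well above at 40 min in YPD. SPR3, SPR28, CDC3 and CDC10 were at least 2-fold higher than the reference in both spots, 4 of 7, where 19.7% of all genes were, and CDC11 was at least 2-fold lower by its measured ratio, 1 of 7, where 17.7% were. With the sample channel of CDC11 not above background, its bound is at least 1.04-fold lower. The median log2 ratio of the 7 at 40 min was 2.10, and that of all genes was 0.00.

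Of the 3 genes that act with septins in spores, GIP1 and YSW1 were far above the reference and near the ceiling, like the bright septins. GIP1 encodes the subunit that brings the protein phosphatase Glc7 to the septins of the prospore membrane, and YSW1 encodes a septin-associated protein of spores. At 5.5 h the measured mean folds over the reference were 65.0 for GIP1 and 8.13 for YSW1, which the ceiling may have made too low. Their measured changes at 40 min were −1.21 ± 0.13 for GIP1 and −0.98 ± 0.02 for YSW1. GLC7, the catalytic phosphatase of vegetative and sporulating cells, had a log2 ratio of 0.58 ± 0.10 at 5.5 h, and was below the ceiling. Compared with 5.5 h it was lower by 2.83-fold at 20 min (log2 change −1.50 ± 0.18) and by 2.43-fold at 40 min (−1.28 ± 0.10). By count, 2 of these 3 genes were at least 2-fold lower at 40 min in both spots, GIP1 and GLC7, where 19.8% of all genes were, and GIP1 was near the ceiling on both arrays.

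The genes that assemble or modify the septin ring in budding cells mostly did not pass 2-fold after transfer. Of 20 such organisers (the Cdc42 module, bud-neck kinases, scaffolds, a phosphatase subunit and SUMO enzymes), 1 was higher and 2 were lower by 2-fold or more at 40 min than at 5.5 h in both spots, where 13.9% and 19.8% of all genes were. Their median change was −0.29, against −0.22 for all genes. In this comparison 11 of the 20 were above background on neither array, so their changes have no reading. The gene that was higher was NIS1, encoding a bud-neck protein that binds septins, at 3.70-fold (log2 change 1.89 ± 0.10), after 2.70-fold at 20 min. RTS1, the regulatory subunit of protein phosphatase 2A that acts on septins after division, was 2.49-fold lower at 40 min (−1.32 ± 0.01), and the fold at 20 min was 2.32. ULP1, the protease that takes SUMO off septins, was at least 2.29-fold lower at 40 min, with a measured change of −1.83 ± 0.38. NAP1, which works with the kinase Gin4 on septins, was 3.45-fold higher at 0 min by its ratio (1.79 ± 0.46). In the sample channel alone its log2 change at 0 min was 0.99, with 1.65 and 0.33 in the 2 spots. NAP1 did not pass 2-fold in both spots at 40 min, and it was named after its values were seen.

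At 5.5 h in SPM, 2 of the 20 organisers were at least 2-fold above the YPA reference and 1 was below, where 21.7% and 18.1% of all genes were, and 8 of the 20 were above background in neither channel. CDC42, the polarity GTPase that starts septin recruitment, was 5.39-fold higher (2.43 ± 0.10), and BNI5, a septin-binding protein that links the ring to myosin II, was at least 3.04-fold higher. BNI4, the scaffold that ties chitin synthase to the neck, had a measured log2 ratio of −1.03 ± 0.03 with the sample not above background. These 3 were named after their values were seen. CDC42 was still 3.40-fold above the reference at 40 min.

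The cytokinesis genes whose products gather at the septin ring gave a mixed picture. Of 10, 2 were lower by 2-fold or more at 40 min than at 5.5 h and 0 were higher, where 19.8% and 13.9% of all genes were, and 5 were above background on neither array. IQG1, the IQGAP scaffold of the contractile ring, was lower by 2.53-fold at 40 min (−1.34 ± 0.06) and by 4.81-fold at 20 min (−2.26 ± 0.04). BNR1, the formin that is held at the bud neck by septins, was 2.47-fold lower at 40 min by its measured ratio (−1.30 ± 0.13). The log2 change was −1.96 in the sample channel alone, and the reference channel was not above background at 40 min. BNR1 was the cytokinesis gene with the highest ratio at 5.5 h, 21.9-fold above the YPA reference (4.45 ± 0.30), and it stayed at least 6.38-fold above at 40 min. At 5.5 h MLC1, the myosin light chain, was 3.75-fold and HOF1, an F-BAR protein of the neck, 2.75-fold higher than in the reference. IQG1 was 2.05-fold lower there, and CYK3, which acts in septum formation, had a measured log2 ratio of −1.48 with the sample not above background. By count, 3 of 10 were higher and 2 lower at 5.5 h, where 21.7% and 18.1% of all genes were, and those outside the naming rule were named after their values were seen.

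**Figure D5:**
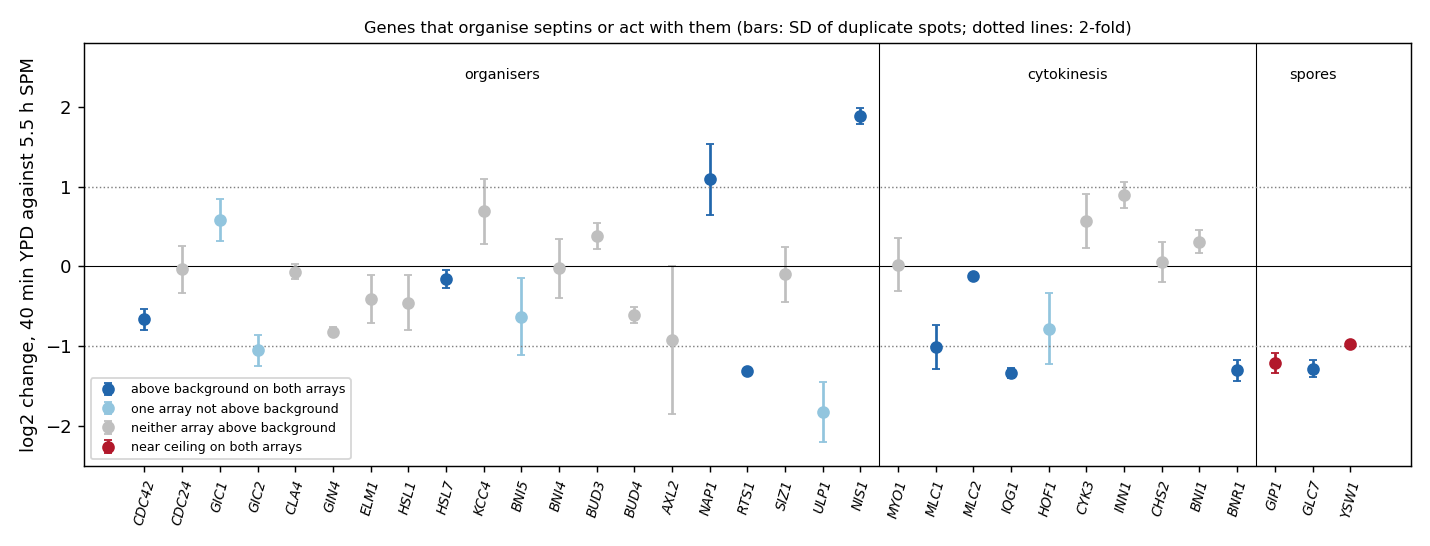
Log2 change at 40 min in YPD against 5.5 h in SPM for 20 septin organisers, 10 cytokinesis genes and 3 spore partners, coloured by whether the sample channel was above background or near the ceiling; bars are the SD of the 2 spots and dotted lines mark 2-fold. NIS1 is the highest at 1.89 and ULP1 the lowest at −1.83, and the grey points have no reading above background.

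The genes most like each septin were sought by the Euclidean distance between log2 ratios over the 4 arrays, among 2297 other genes with the sample above background on all 4 arrays (2298 for CDC11, which did not itself pass). The 5 nearest to SPR3 were SPR6, PIR5, YGL230C, SGA1 and SPR1, at distances of 0.14 to 0.40. SPR6 is a sporulation gene of unknown function, PIR5 encodes a protein akin to cell wall proteins, SGA1 the glucoamylase of sporulating cells and SPR1 a spore wall glucanase. All 5 were near the ceiling on all 4 arrays. The 5 nearest to SPR28 were YEL023C, CUZ1, YNL033W, MLO50 and HXT14, at distances of 1.29 to 2.22, which include the deviating second spot of SPR28 at 20 min.

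For CDC3 the nearest were SEC12, the exchange factor that starts COPII coat formation, YFL012W and HYM1, a component of the RAM signalling network, at 0.21 to 0.33. HYM1 was near the ceiling on 4 arrays, YFL012W on 1 and SEC12 on 0. SEC12 had log2 ratios of 4.16, 4.64, 3.56 and 2.92. For CDC10 the nearest were YPR147C, CNB1, the regulatory subunit of calcineurin, and AKR1, a palmitoyl transferase, at 0.18 to 0.37, none of them near the ceiling on any array. YPR147C had log2 ratios of 3.56, 3.61, 2.76 and 2.15.

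The 3 nearest to CDC11 were VTC3, of the vacuolar polyphosphate polymerase, BSD2, a ubiquitin ligase adaptor, and COX14, a cytochrome oxidase assembly factor, at 0.20 to 0.30. Their log2 ratios at 40 min were −1.19, −1.38 and −1.02. The nearest to CDC12 were YRF1-7, SRF1 and YLL037W at 0.07 to 0.20, of which YRF1-7 belongs to a family of near-identical subtelomeric copies that a PCR-product probe may not separate. The nearest to SHS1 were ERV41 and VPS45, of vesicle transport, and FCY1, cytosine deaminase, at 0.13 to 0.24. No septin was among the nearest genes of another septin. CDC11 could not be, since it did not pass the background filter, and the distances to SPR28 include its deviating second spot.

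The 7 genes lie on 6 chromosomes, with SHS1 and SPR28 both on chromosome IV, CDC10 on III, SPR3 on VII, CDC12 on VIII, CDC11 on X and CDC3 on XII. None overlaps another protein-coding gene in the RefSeq annotation of assembly R64. Next to CDC3 lies SPH1, a polarity gene, with log2 ratios of 2.98, 3.62, 2.92 and 2.40, and next to SPR28 lies MFB1, with 3.08, 2.84, 1.97 and 1.56. On their other sides, NKP2 beside CDC3 had 0.10, −0.50, −0.18 and −0.11, and RAD9 beside SPR28 had 0.51, 0.88, 0.24 and 0.63. At 5.5 h GCS1, next to SHS1, had 1.99 and PEF1, next to SPR3, had 1.53. On the other sides at 5.5 h, WHI4 beside SHS1 had 0.91 and ERG25 beside SPR3 had 0.58. Beside CDC11, MIR1 had −1.98 and HOC1 −0.79 at 5.5 h, and beside CDC12, TRR2 had −1.03 and GGA2 −0.20. The neighbours of CDC10 on both sides were between −1.59 and 0.87 on all arrays.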

How the data were processed

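The authors used arrays that carry a PCR product of each yeast ORF in 2 adjacent spots, and measured the scans in QuantArray version 3. For both channels the files deposited from the scanner give the intensity of the spot and of its local background, linear and not yet subtracted. The authors' deposited table of log2 ratios (background subtracted, low values raised to a floor, array median subtracted) was an alternative. The dye fields and the file headers give Cy5 as the sample, whereas the labelling text names the dyes the other way round. The authors' steps repeated on the intensities correlated with the table at r = 0.994 to 0.998, with the same sign. No dye swap was made.

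The normexp correction (offset 50) of limma 3.58.1, run in R 4.3.3, was followed by global loess with control spots at weight 0 and centring on the median gene spot. The script was tested on simulated data. A gene counted as higher or lower when both of its spots, and their mean, differed at least 2-fold in that direction. No test was run, since each group has 1 array, and precision is limited by how few arrays there are. The labels' source names round 5.5 h to a whole hour. A bound ("at least") compares the brighter side with the dimmer value or the dimmest spot above background, whichever was higher, per channel after loess and Aquantile, and is open to dye bias. "Sample channel alone" is the Cy5 value after the same steps. Those steps use both channels, so the reference still enters its scaling.

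Of 6218 ORFs, 5663 matched a RefSeq locus tag of assembly R64. That table gave names, chromosomes and neighbours. The array's genome build is not given in the sources used here, and no sequences are shown. The 7 septins, the partner lists and the alternatives were chosen with earlier results of these data known. Named were all 7 septins, the 3 spore partners, up to 5 members of each other list per direction with the largest change at 40 min among those past 2-fold with the brighter side above background, and the 5 (SPR3, SPR28) or 3 nearest genes. The near-ceiling rule was added after the data were seen. Alternatives were the background correction, normalization, duplicate spots, the sample channel, a filter on dim genes and the deposited table.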

Additional observations from a re-analysis of the deposited data

How the results depend on the processing

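No paired analysis was possible because each group had 1 array and no test was run. The 4 septins at least 2-fold above the YPA reference at 5.5 h stayed at 4 under 7 of 8 alternatives and were 3 with only genes above background in both channels on every array, a filter that leaves out SPR3 and CDC11. Of 92 comparisons of a septin count with an alternative, 81 stayed within 1.5 times the count reported, and 11 did not. Many of the 81 set a count of 0 against 0 and so say little about stability. For the log2 values of single septins, 215 stayed within the SD of the 2 spots and 85 did not. The 2 septins lower at 40 min than at 5.5 h became 1 with print-tip loess, 1 in the sample channel alone and 1 without genes near the ceiling (CDC11 each time), and 1 with that filter (CDC10). At 40 min 1 septin was higher in spot 2 alone. At 20 min 1 was higher in spot 2 alone, 1 higher in the deposited table and 1 lower in spot 1 alone. At 0 min 1 was higher in the deposited table. The 1 septin lower than the reference at 40 min became 0 with print-tip loess (CDC11 at −0.95) and 0 with the filter. The cause of these shifts was not tested. For CDC11 the log2 change at 40 min ranged from −1.77 to −1.40 over 9 alternatives. For CDC10 the change at 20 min was 0.74 with print-tip loess, against −0.78, and at 40 min it ranged from −1.36 to −0.53. For CDC3 at 20 min it was 0.03 when arrays were centred on their median without loess. For SPR28 at 40 min it ranged from −0.67 to 1.22. At 5.5 h the log2 ratio to the reference ranged from 6.27 to 6.84 for SPR3, 3.75 to 4.97 for SPR28, 3.91 to 4.55 for CDC3 and 3.33 to 3.60 for CDC10.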
